A study of Caenorhabditis elegans with 7 samples.

Results

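The col genes of the nematode Caenorhabditis elegans encode cuticle collagens, the main protein of the coat that covers the worm. They were taken as every gene of the deposited count table whose symbol is col- followed by digits only, which gave 156 of the 46748 genes. RNA had been sequenced from early embryos, collected before gastrulation from mothers that held few eggs, in 7 libraries. Of these, 4 came from flp-21(ok889) mutants, in libraries numbered 11, 22, 29 and 30, and 3 from wildtype, called N2 in the library names, numbered 11, 22 and 30. The gene flp-21 encodes a FMRFamide-like neuropeptide, and ok889 is a deletion allele of it. The labels give no transgene, treatment, temperature or maternal age for either group. Nor do they state that each library is a culture of its own, so every p-value rests on a spread between samples that may be technical. Maternal provisioning stands in the title of the series, and the comparison of genotypes asks whether transcripts in the embryo differ with the genotype.

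Cuticle collagens are short chains of Gly-X-Y repeats, where X and Y are often proline and hydroxyproline. They are folded into trimers in the endoplasmic reticulum, trimmed by proteases and crosslinked through tyrosines outside the cell. Hypodermal cells secrete them when a cuticle is made, which occurs late in embryogenesis and again at each moult. Many col genes are transcribed in a fixed order within each moult cycle, and some mark a stage, as col-19 and col-7 mark adults, col-17 larvae and col-2 the dauer larva. An embryo before gastrulation has neither differentiated hypodermis nor a cuticle.

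Total counts ran from 34164612 to 53620276 per library. Levels are given as deposited counts or as CPM scaled by the trimmed mean of M-values (TMM), that is, as a share of the library's reads, and 1 count was worth 0.0181 to 0.0377 CPM. Each of the 20 early embryo genes on a list of maternal and early zygotic transcripts had counts in both genotypes, but not in every library. Both med-1 and med-2 had 0 counts in wildtype library 22. In wildtype libraries 11, 22 and 30, pes-10 had 1148, 16 and 1335 counts and tbx-38 had 127, 3 and 181. Summed levels of the 20 genes were 10882 to 14305 CPM in the mutant libraries and 5086 to 10865 CPM in the wildtype libraries. The targeted gene flp-21 had wildtype counts of 24, 2 and 6 and mutant counts of 2, 1, 5 and 9, too few to check the genotype labels. Values listed for the libraries follow their numbers, 11, 22 and 30 in wildtype and 11, 22, 29 and 30 in the mutant. Mutant libraries 22 and 29 were the most alike pair of mutant libraries. Per degree of freedom, the chi-square of their counts was 22.9 over all genes and 2.10 over 107 col genes, where the other mutant pairs gave at least 14.2 over the col genes. In RNA from whole embryos, fewer cells of a type and less RNA per cell cannot be told apart.

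As a family, the col genes were far more abundant in the wildtype libraries than in the mutant libraries, and they also differed widely between libraries of the same genotype. Their summed level was 31.05, 1297, 1129 and 91.1 CPM in mutant libraries 11, 22, 29 and 30. For wildtype libraries 11, 22 and 30 it was 45889, 10370 and 7077 CPM. The groups did not overlap, with the lowest wildtype library above the highest mutant library. Within the mutant, libraries 22 and 29 lay far above libraries 11 and 30, and within wildtype, library 11 stood above the other two. The wildtype mean was 21112 ± 21521 CPM (SD, n = 3) and the mutant mean 637 ± 669 CPM (SD, n = 4), so that in each group the spread was as large as the mean.

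**Figure D1:**
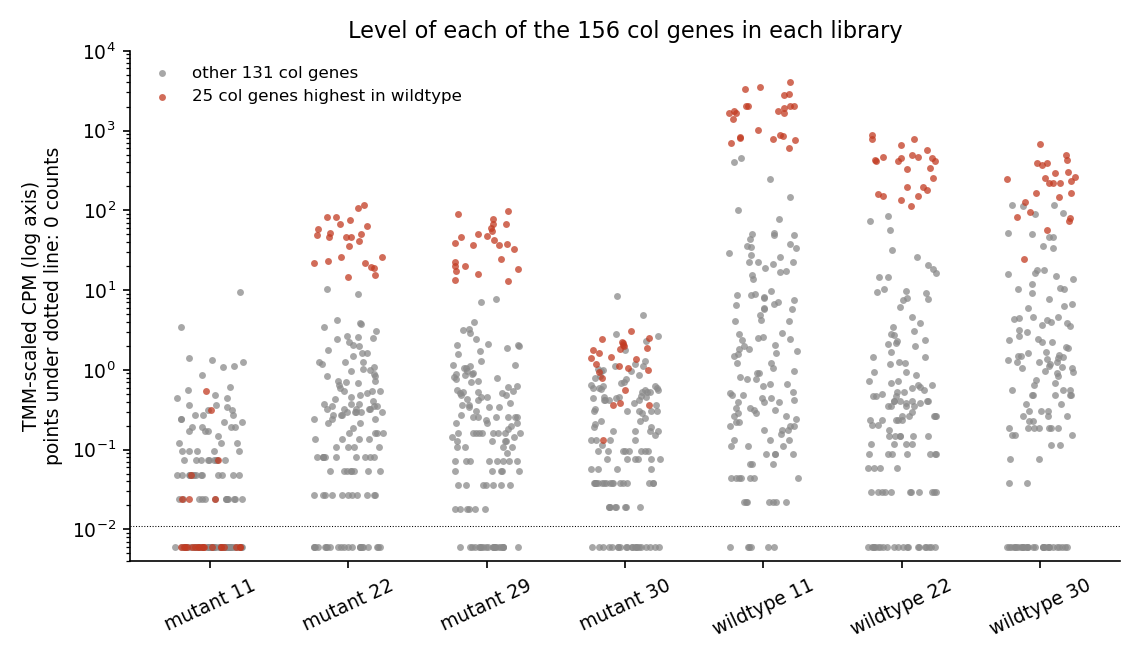
Each point is a col gene in a library, with its TMM-scaled CPM on a log axis, red for the 25 genes highest in wildtype and grey for the others. Points under the dotted line had 0 counts. In mutant library 11, 18 of the 25 genes had 0 counts, while in wildtype library 11 all 25 had at least 27150.

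The number of col genes found also changed from library to library. At least 10 counts were present for 25, 87, 89 and 81 of the 156 genes in the mutant, by library number, and wildtype had 116, 90 and 103 such genes. Mutant library 11 stood apart with 71 col genes at 0 counts, where the other mutant libraries had 21 or 22 and wildtype 6, 21 and 29. At this depth a count of 0 allows up to 3 counts, and such limits cover counting error only. No col gene reached 1000 counts in mutant libraries 11 and 30, against 16 in mutant library 22, 21 in mutant library 29 and 46, 29 and 33 in wildtype. The most abundant col gene was col-38 in mutant libraries 11 and 30, with 393 and 448 counts. It was col-124 in mutant libraries 22 and 29 and wildtype library 22, and col-122 in wildtype libraries 11 and 30.

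Across the family, 62 of the 100 col genes with enough counts to test were lower in the mutant at an edgeR adjusted p under 0.05, 0 were higher and 38 did not pass. Over all 13035 genes tested, 29.4% were lower and 9.01% higher. At an unadjusted p under 0.05, 76 col genes were lower and 1, col-63, was higher. Of the 134 col genes that DESeq2 tested, it called 72 (53.7%) lower and 1 higher, beside 28.2% of all its tested genes lower. The log2 fold changes of the tested col genes ran from -7.35 to 1.55 with a median of -4.01, beside a median of -0.21 over all genes tested. A fall of over 8-fold was called for 55 col genes, where 20.9% of all genes tested had one. For 67 of the tested col genes every mutant library lay below every wildtype library, beside 30.5% of all genes, and for 1 every mutant library lay above, beside 14.1%. Of the 62 genes called, 3 had overlapping groups, namely col-34, col-107 and col-126. These counts cover tested genes only, and of the 100, 25 passed the count filter through wildtype libraries alone, of which 20 were called lower, while 55 had enough counts in libraries of both genotypes, of which 40 were called lower. The last gene called was col-19, with an adjusted p of 0.0497, and the next in order was col-91, with 0.0509.

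**Figure D2:**
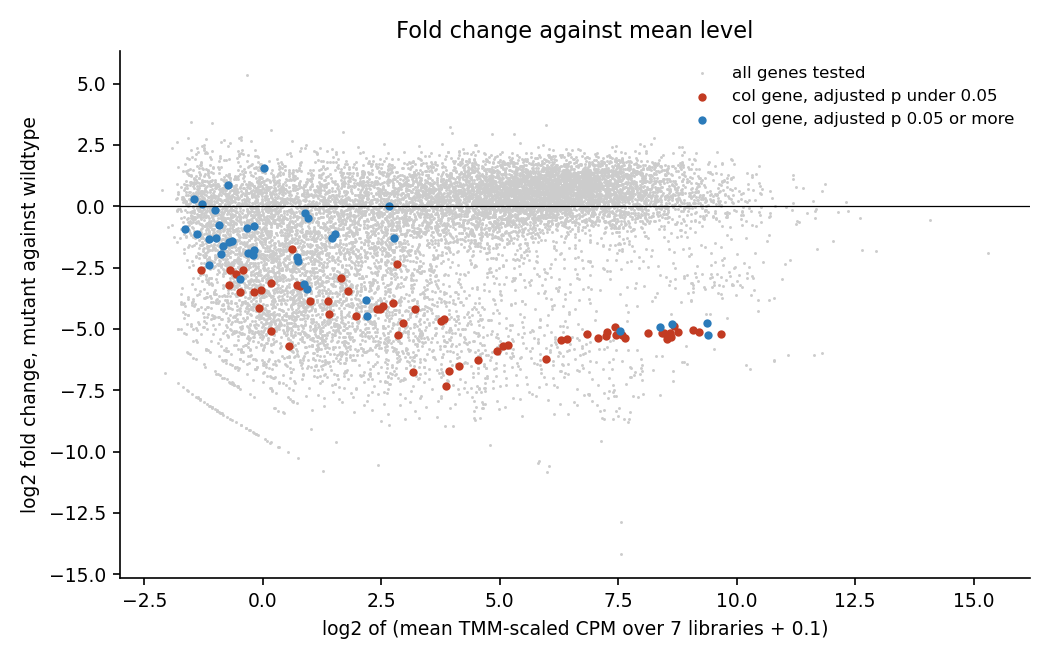
The log2 fold change of mutant against wildtype is drawn against the log2 of the mean TMM-scaled CPM over 7 libraries plus 0.1, grey for all genes tested, red for col genes called and blue for col genes not called. Col genes at the right lie between -5.39 and -4.78, and those nearest 0 are at low levels.

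These counts depended on which libraries entered the fit, all analysed with edgeR. Without mutant libraries 22 and 29, 63 of 105 tested col genes were lower, beside 21.1% of all genes. Without mutant library 22, 39 of 97 were lower, beside 25.2% of all genes, and without mutant library 30, 41 of 98, beside 29.4%. Without mutant library 29, 30 of 99 were lower, beside 25.1% of all genes, so that the share of col genes was near that of all genes. Without wildtype library 11, 28 of 104 were lower, beside 23.3% of all genes and so again near it, and 1, col-128, was higher. With wildtype library 30 as the only wildtype library, 22 of 110 were lower, beside 13.9% of all genes, and the median log2 fold change of the col genes was -2.79. In that fit wildtype has no spread of its own and library 30 is assumed to vary like the mutant libraries.

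Levels in wildtype differed widely between col genes. Per kilobase of exon, 5 col genes had a wildtype mean above 1000 CPM, of which 3 were called lower, and 23 lay between 100 and 1000, of which 20 were. All 18 genes between 10 and 100 CPM per kb were called lower. Between 1 and 10 CPM per kb there were 39 genes, of which 36 were tested and 20 called. Of the 71 genes below 1 CPM per kb, 18 were tested and 1 was called. Over all genes tested, 29.4% were called lower. The bands rest on the wildtype level, which is itself part of the comparison, so these counts are a description.

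The 10 col genes with the highest wildtype means per kilobase were col-122, col-140, col-181, col-124, col-20, col-93, col-106, col-119, col-184 and col-80, from 1826 ± 1907 down to 877 ± 834 CPM per kb (SD, n = 3). Neighbours in that order did not differ beyond their spread over libraries. The gene col-122, on chromosome IV from 9563360 to 9564471 in build WBcel235, gave wildtype counts of 182076, 26949 and 17784 and mutant counts of 0, 3979, 5039 and 162. Every wildtype library lay above every mutant library, but mutant libraries 22 and 29 held far more counts than library 30, and library 11 held none. Its means were 1837 ± 1918 CPM for wildtype (SD, n = 3) and 50.4 ± 56.8 CPM for the mutant (SD, n = 4), and its log2 fold change was -5.19 (SE 1.82, edgeR adjusted p = 0.0484). It passed in 4 of 16 alternatives, with adjusted p from 0.00935 to 0.291.

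The collagen gene col-140 followed the same order of libraries, with wildtype counts of 127621, 22498 and 12914 and mutant counts of 0, 3054, 3760 and 105. Its log2 fold change was -5.12 (SE 1.79, edgeR adjusted p = 0.0477). Next came col-181, with wildtype counts of 155634, 26628 and 8090 and mutant counts of 0, 3024, 4276 and 77. Here too the groups did not overlap, and mutant library 11 again had no read, yet the log2 fold change of -5.24 (SE 1.88, edgeR adjusted p = 0.0525) missed the threshold. For col-124, which shares bases with qns-1, the values were wildtype counts of 149569, 30147 and 5885 and mutant counts of 1, 4271, 5443 and 94, with a log2 fold change of -4.78 (SE 1.84, edgeR adjusted p = 0.0674). This was the most abundant col gene of mutant libraries 22 and 29, and it was not called. The gene col-20 had wildtype counts of 126713, 19528 and 5868 and mutant counts of 3, 2821, 3711 and 86, a log2 fold change of -5.05 (SE 1.74, edgeR adjusted p = 0.0454).

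Of the other 5, col-93, col-106, col-184 and col-80 were called lower, and col-119 was not. The largest fall among the 10 was that of col-106, from 835 ± 825 CPM (SD, n = 3) in wildtype to 19.9 ± 21.9 CPM (SD, n = 4) in the mutant. Its log2 fold change was -5.39 (SE 1.69, edgeR adjusted p = 0.0309), after wildtype counts of 80087, 15672 and 7022 and mutant counts of 0, 1526, 2011 and 107. The values of col-93 were wildtype counts of 91909, 15203 and 11481 and mutant counts of 0, 2164, 2817 and 132, with a log2 fold change of -5.12 (SE 1.70, edgeR adjusted p = 0.0393). Both genes were at 0 in mutant library 11 and highest in wildtype library 11. For col-184 the log2 fold change was -5.34 (SE 1.78, edgeR adjusted p = 0.0396), for col-80 -4.88 (SE 1.72, edgeR adjusted p = 0.0489) and for col-119 -4.82 (SE 1.87, edgeR adjusted p = 0.0698).

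The adult-specific collagen col-19, used widely as a reporter of the switch from larva to adult, had wildtype counts of 91659, 14062 and 4411 and mutant counts of 0, 1904, 2530 and 55. Wildtype library 11 was highest, mutant library 11 held none, and the groups did not overlap. Its log2 fold change was -5.15 (SE 1.82, edgeR adjusted p = 0.0497), just inside the threshold, and it was called in 4 of 16 alternatives. The collagens most abundant per kilobase in the mutant were also abundant in wildtype, with col-122, col-124, col-140, col-181 and col-20 in that order at 50.1, 47.1, 40.5, 36.6 and 34.3 CPM per kb. The SDs of these 5 means exceeded the means, since each rests on libraries 22 and 29.

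A set of 25 col genes, taken after their values were seen as those with the highest wildtype mean CPM, held most col reads in 5 of the libraries. The lowest of them was col-103, at 258 CPM, and the next gene outside was col-142, at 193 CPM. They made up 95.1%, 95.3% and 85.0% of the summed col level in wildtype libraries 11, 22 and 30 and 93.0% and 93.3% in mutant libraries 22 and 29. In mutant libraries 11 and 30 they made up 3.37% and 39.2%. All 25 had every mutant library below every wildtype library, beside 30.5% of all tested genes. Of the 25, 20 were called lower, beside 29.4% of all tested genes. Their log2 fold changes ran from -5.39 to -4.78 and their edgeR adjusted p from 0.0183 to 0.0698. A set picked by a high wildtype level leans to genes lower in the mutant, so these counts are a description. All 25 were called lower without mutant library 11, but 3, 0 and 5 without mutant library 22, 29 or 30 and 0, 7 and 6 without wildtype library 11, 22 or 30. Their counts were 0 to 22 in mutant library 11, 537 to 4271 in library 22, 711 to 5443 in library 29 and 7 to 162 in library 30. In wildtype the ranges were 27150 to 182076, 3840 to 30147 and 645 to 17784.

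**Figure D3:**
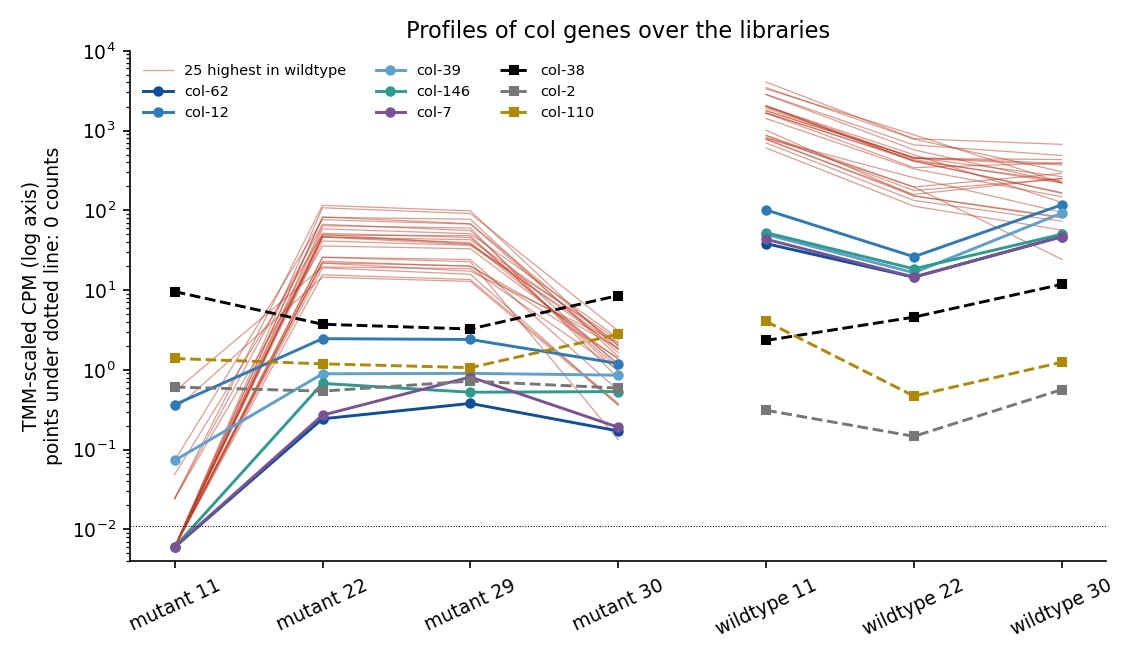
TMM-scaled CPM on a log axis is drawn for each of the 7 libraries, with thin red lines for the 25 col genes highest in wildtype and thick lines for 8 named genes. Lines only join the libraries of a genotype, which have no order. The red lines run together, with 2.22% to 3.50% of their wildtype library 11 level in mutant library 22 and at most 22 counts in mutant library 11, while col-38, col-2 and col-110 stay within overlapping ranges.

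Within this set the proportions between genes were nearly constant from mutant libraries 22 and 29 to wildtype library 11. In mutant library 22 each of the 25 stood at 2.22% to 3.50% of its level in wildtype library 11, with a median of 2.65%. Mutant library 29 gave 1.93% to 3.03%, with a median of 2.29%. The range was wider in wildtype library 22, from 15.0% to 32.0% with a median of 22.5%, and wider again in wildtype library 30, from 2.97% for col-8 to 33.3% for col-159 with a median of 11.7%. In mutant library 30 the share was 0.0132% to 0.287%, with a median of 0.0692%. Outside the set, 57 col genes with at least 10 counts in both mutant library 22 and wildtype library 11 spread from 0.623% to 412%, with a median of 8.58%. The genes share library, depth and base composition within each pair of libraries, so these shares are a description.

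**Figure D4:**
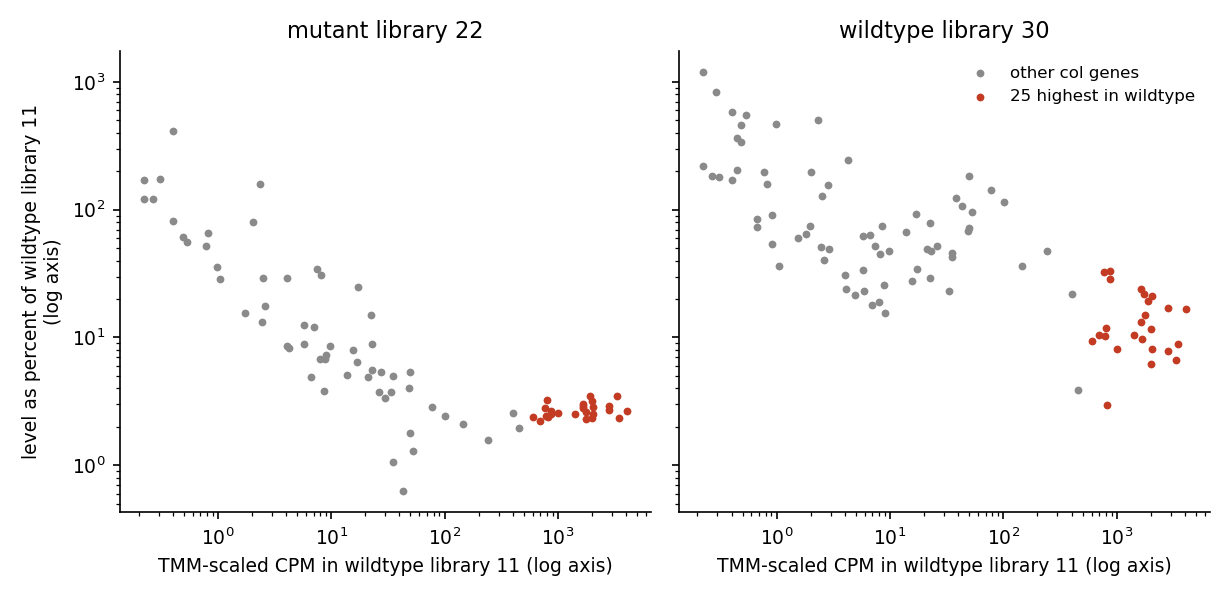
The level of each col gene in mutant library 22 (left) and wildtype library 30 (right), as a percent of its level in wildtype library 11, is drawn against that level, all on log axes. The 25 highest genes in red lie in a narrow band around 2.65% at the left and between 2.97% and 33.3% at the right.

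The same order of genes was present in most libraries. Across col genes, Spearman's rho was 0.959 between mutant libraries 22 and 29, 0.850 to 0.898 between pairs of wildtype libraries and 0.851 between mutant library 22 and wildtype library 11. Mutant library 30 was less alike, with rho from 0.650 to 0.756 against the libraries other than mutant library 11. Mutant library 11 showed no such order, with rho from -0.257 to 0.191 against the other libraries. These values run over 136 to 154 col genes with a count in either library, which are not independent replicates.

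The clearest falls relative to their error belonged to collagens of intermediate level, col-62, col-12, col-39, col-146 and col-7, which had the smallest p-values of the family. The gene col-12, whose transcript recurs in each moult cycle, had wildtype counts of 4545, 892 and 3105 and mutant counts of 15, 91, 133 and 63. Its means were 81.5 ± 48.5 CPM for wildtype (SD, n = 3) and 1.61 ± 1.01 CPM for the mutant (SD, n = 4). Library 22 was lowest among the wildtype libraries and still held several times the counts of any mutant library, and the log2 fold change was -5.66 (SE 0.77, edgeR adjusted p = 0.000610). Its neighbour col-13, linked with col-10 and col-120 to the long life of insulin receptor mutants, had wildtype counts of 3500, 713 and 2973 and mutant counts of 4, 82, 95 and 36, a log2 fold change of -5.90 (SE 0.96, edgeR adjusted p = 0.00136). For both, wildtype library 30 was above wildtype library 11 on the CPM scale, with 117 against 101 CPM for col-12. By total count alone, without TMM scaling, col-12 was higher in wildtype library 11.

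The gene with the largest fall was col-62, with wildtype counts of 1719, 495 and 1244 and mutant counts of 0, 9, 21 and 9. Its means were 33.2 ± 16.8 CPM for wildtype (SD, n = 3) and 0.199 ± 0.158 CPM for the mutant (SD, n = 4), a log2 fold change of -7.35 (SE 0.97, edgeR adjusted p = 0.000554). The adult collagen col-7, which lies beside it on chromosome I, had wildtype counts of 1951, 496 and 1232 and mutant counts of 0, 10, 45 and 10 and a log2 fold change of -6.74 (SE 1.08, edgeR adjusted p = 0.00127). In both, library 11 of the mutant held no read and library 29 was the highest of the mutant. Both col-62 and col-7 passed the count filter through wildtype libraries alone. The values of col-39 were wildtype counts of 2242, 562 and 2445 and mutant counts of 3, 33, 50 and 45, with a log2 fold change of -6.27 (SE 0.88, edgeR adjusted p = 0.000711). For col-146 they were wildtype counts of 2358, 629 and 1327 and mutant counts of 0, 25, 29 and 28, with -6.53 (SE 1.00, edgeR adjusted p = 0.00102). Mutant library 11 was lowest for both, and the other 3 mutant libraries lay close together. These 5 genes and col-13 were called lower in each of the 16 alternatives run on scaling, tool, filter, fold threshold, block and libraries left out, and of the other 20 col genes named by rule none was. The 5 genes were picked by the smallest p-values, and 5 of the 20 by a fold change nearest 0. The naming rule thus favours this contrast.

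Among col genes with a known tie to a stage or to life span, col-10 fell, with wildtype counts of 1024, 106 and 285 and mutant counts of 1, 47, 61 and 28 and a log2 fold change of -4.05 (SE 1.03, edgeR adjusted p = 0.0115). Without wildtype library 11 its adjusted p was 0.0586. The dauer collagen col-2 was at low counts in both groups, with wildtype counts of 14, 5 and 15 and mutant counts of 25, 20, 40 and 31. Its groups overlapped, and its log2 fold change of 0.86 (SE 0.64, edgeR adjusted p = 0.326) did not pass. The larval collagen col-17 had wildtype counts of 0, 4 and 4 and mutant counts of 0, 2, 0 and 1 and was not tested. The gene col-120 had wildtype counts of 20, 12 and 43 and mutant counts of 6, 9, 12 and 29, with a log2 fold change of -1.45 (SE 0.76, edgeR adjusted p = 0.167). The gene col-99 encodes a transmembrane collagen and had wildtype counts of 334, 25 and 103 and mutant counts of 35, 95, 115 and 58. Wildtype library 22 held the fewest of its counts and wildtype library 11 the most, so that the groups overlapped, and its log2 fold change was -1.28 (SE 0.76, edgeR adjusted p = 0.216).

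The 5 col genes with a log2 fold change nearest 0 were col-38, col-123, col-64, col-110 and col-46. The most abundant of them was col-38, on chromosome II from 8568033 to 8569088, with wildtype counts of 105, 156 and 313 and mutant counts of 393, 138, 180 and 448. Mutant libraries 11 and 30 were highest by count, unlike for the abundant collagens, but on the CPM scale wildtype library 30 was the highest, at 11.8 CPM, ahead of mutant library 11 at 9.57 CPM and mutant library 30 at 8.54 CPM, and the groups overlapped. Scaled by total count alone, mutant library 11 was the highest for col-38, and the groups overlapped as well. Its means were 6.24 ± 4.95 CPM for wildtype (SD, n = 3) and 6.27 ± 3.25 CPM for the mutant (SD, n = 4), with a log2 fold change of 0.01 (SE 0.67, edgeR adjusted p = 0.992). The gene col-110 had wildtype counts of 182, 16 and 33 and mutant counts of 57, 44, 59 and 146, and its fold change of -0.26 (SE 0.76, edgeR adjusted p = 0.819) shares the overlap of groups. No count exceeded 31 in any library for col-123, col-64 and col-46, whose log2 fold changes were 0.08, -0.14 and 0.30. Exons of col-123, col-64 and col-110 overlap other annotated genes, and since no strand option is stated for the counting, their reads cannot be told apart. With upper quartile scaling the fold changes of col-38 and col-123 were negative, at -0.18 and -0.13, and with library size alone that of col-64 was positive, at 0.13.

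Only col-63, chosen here after its values were seen, had all mutant libraries above all wildtype libraries among the tested genes. It had wildtype counts of 18, 8 and 18 and mutant counts of 44, 61, 72 and 58, with means of 0.438 ± 0.224 CPM for wildtype (SD, n = 3) and 1.28 ± 0.265 CPM for the mutant (SD, n = 4). Its log2 fold change of 1.55 (SE 0.61, edgeR adjusted p = 0.0720) did not pass the threshold. It was called higher with library size in place of TMM scaling (1.82, edgeR adjusted p = 0.0345), with DESeq2 (1.79, adjusted p = 0.00905) and without wildtype library 30 (2.12, edgeR adjusted p = 0.0205). The untested gene col-128 had wildtype counts of 5, 1 and 0 and mutant counts of 10, 8, 9 and 25, and it was called higher only in the fit without wildtype library 11 (3.95, edgeR adjusted p = 0.0410).

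The wildtype libraries, though alike in the order of col genes (Spearman's rho 0.850 to 0.898), also differed in the levels of single genes. Of the 82 col genes with at least 10 counts in each wildtype library, 62 were highest in library 11, 18 in library 30 and 2 in library 22 on the CPM scale, and 48 were lowest in library 22. For the 25 abundant genes, library 11 exceeded library 22 by 3.12 to 6.65 times and library 30 by 3.00 to 33.7 times, the largest for col-8. By contrast, 19 genes were higher in library 30 than in library 11 on the CPM scale, among them col-12, col-13, col-39, col-7 and col-62. This order depends on the scaling, with TMM factors of 1.05 for library 11 and 0.732 for library 30. By total count alone, col-12, col-7 and col-62 were higher in library 11. Of the 19, 11 were called lower in the mutant, beside 29.4% of all tested genes. A set picked by a high level in a wildtype library leans to lower calls, so this count is a description. Another 7 genes were found almost only in wildtype library 11 among the wildtype libraries, with at least 50 counts there and at most 15 in each of the others. They were led by col-165, with wildtype counts of 1329, 1 and 0 and mutant counts of 0, 37, 43 and 0. Next was col-74, with wildtype counts of 1245, 12 and 6 and mutant counts of 2, 55, 64 and 0. Their log2 fold changes of -4.47 (SE 2.22, edgeR adjusted p = 0.145) and -3.81 (SE 1.79, edgeR adjusted p = 0.123) did not pass. The untested col-121 had wildtype counts of 848, 2 and 0 and mutant counts of 3, 3, 4 and 7.

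Among the mutant libraries, 102 col genes had at least 20 counts in all. Of these, 63 were highest in library 22, 22 in library 30, 15 in library 29 and 2 in library 11, while 77 were lowest in library 11. The col genes outside the abundant set summed to 1232, 3360, 4181 and 2908 counts in mutant libraries 11, 22, 29 and 30, a narrower range than the 43, 44617, 58298 and 1873 counts of the 25. In wildtype libraries 11, 22 and 30 they summed to 100523, 16573 and 28234 counts.

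The 56 col genes that were not tested had a median of 23.5 counts over all 7 libraries. Of these, 27 had fewer than 20 counts in all, 8 had none in the mutant, and col-55 and col-171 had none anywhere. The highest was col-121, with 867 counts, nearly all in wildtype library 11.

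The col genes are spread over the genome, with 21, 24, 12, 41, 31 and 27 on chromosomes I, II, III, IV, V and X. Of those tested, 3 of 10, 6 of 13, 7 of 11, 16 of 29, 20 of 23 and 10 of 14 were called lower, where 23.7% to 35.5% of all tested genes on a chromosome were. The 3 of 10 on chromosome I stood near the 25.9% of all genes there, and differences between chromosomes were not tested. Exon lengths ran from 627 to 2450 bases with a median of 1009.5, and 77 of the 156 genes had 2 separate exon blocks.

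Some col genes lie close together. There were 29 pairs of neighbouring col genes within 5000 bases, made of 50 genes, and 20 pairs had both genes on the same strand. In 14 pairs the wildtype levels per kilobase were under 3-fold apart, and in 4 they were over 100-fold apart. The convergent pair col-7 and col-62 stood at 34.1 and 34.9 CPM per kb, the genes col-13 and col-12 on the same strand at 73.9 and 75.1, and the divergent pair col-117 and col-3 at 32.7 and 31.1. The row of col-92, col-93 and col-94 on chromosome III held 403, 978 and 444 CPM per kb. In contrast, col-20 at 1139.5 CPM per kb sits between col-17 at 0.0819 and col-73 at 0.683, and col-184 at 881 lies beside col-183 at 0.0212. All these are wildtype means (n = 3), and closely related collagens could share reads, which the counting does not resolve.

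Other gene lists tied to the cuticle are set beside the 29.4% of all tested genes that were lower, and differences between lists were not tested. Of 21 cuticle collagens with names from visible phenotypes (dpy, sqt, rol, bli and lon), 11 were tested, 5 (45.5% of those tested) were lower, 0 were higher and the median log2 fold change was -2.60. Of the 5 called, 2 passed the count filter through wildtype libraries alone, bli-6 and dpy-4. The blister collagen gene bli-6 had wildtype counts of 3502, 810 and 246 and mutant counts of 2, 82, 85 and 14, a log2 fold change of -5.19 (SE 1.15, edgeR adjusted p = 0.00609). The collagen genes dpy-14 and sqt-3, needed for body shape, were found mainly in wildtype library 11, with wildtype counts of 5109, 15 and 59 and mutant counts of 20, 62, 96 and 52 for dpy-14. For sqt-3 there were wildtype counts of 5708, 42 and 95 and mutant counts of 20, 117, 118 and 22. Their log2 fold changes were -4.98 (SE 1.49, edgeR adjusted p = 0.0244) and -4.83 (SE 1.45, edgeR adjusted p = 0.0249), and that of dpy-14 was 0.021 and that of sqt-3 -0.52 without wildtype library 11. With 1 library left out the number lower was 2, 1, 1 and 2 for the mutant libraries and 2, 8 and 6 for the wildtype libraries. Summed levels of the 21 genes were 42.3 to 62.1 CPM in the mutant and 43.4 to 585 CPM in wildtype, so that the groups overlapped.

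The enzymes and chaperones that make and crosslink collagen were present in all libraries at summed levels of 2149 to 2965 CPM in the mutant and 1735 to 3301 CPM in wildtype. Of the 19, 18 were tested, 4 were lower and 0 higher, with a median log2 fold change of -1.15. The share lower, 22.2%, was under that of all genes. The prolyl 4-hydroxylase subunit gene phy-3 had wildtype counts of 194, 179 and 142 and mutant counts of 2, 2, 1 and 11, with a log2 fold change of -5.84 (SE 0.82, edgeR adjusted p = 0.000704). The peroxidase gene skpo-1 had wildtype counts of 4115, 3162 and 730 and mutant counts of 1, 21, 31 and 0, with a log2 fold change of -7.93 (SE 1.23, edgeR adjusted p = 0.00107). For both, no mutant library reached the wildtype range, and both passed the count filter through wildtype libraries alone. The peptidyl-prolyl isomerase gene fkb-3 had wildtype counts of 1389, 176 and 55 and mutant counts of 58, 48, 55 and 62, with -3.38 (SE 0.84, edgeR adjusted p = 0.0102) and groups that did not overlap on the CPM scale, with 2.07 CPM in wildtype library 30 and at most 1.41 CPM in the mutant. Scaled by total count alone, mutant library 11 lay above wildtype library 30 for fkb-3, so that its groups overlapped. Without wildtype library 11 the list held 2 genes lower, fkb-3 no longer among them (-1.46, edgeR adjusted p = 0.103), and without wildtype library 30 it held 7. The protein disulfide isomerase gene pdi-2, a subunit of the prolyl hydroxylase, had means of 978 ± 449 CPM for wildtype (SD, n = 3) and 652 ± 175 CPM for the mutant (SD, n = 4) and was not called.

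Cuticlins, the insoluble non-collagen proteins of the cuticle, had 1 of 19 tested genes (5.26%) lower and 0 higher, with a median of -0.80, and 2 were lower without mutant library 30 and 4 without wildtype library 30. That gene was cutl-10, with wildtype counts of 84, 101 and 43 and mutant counts of 3, 3, 3 and 5 and a log2 fold change of -4.77 (SE 0.62, edgeR adjusted p = 0.000549). It passed the count filter through wildtype libraries alone. The next by p, cutl-14, was not called, with a log2 fold change of -1.87 (SE 0.72, edgeR adjusted p = 0.0640). Then came cut-3, also not called, with wildtype counts of 1485, 1 and 0 and mutant counts of 1, 16, 46 and 6 and a log2 fold change of -4.96 (SE 2.04, edgeR adjusted p = 0.0850). Nearly all its wildtype reads were in library 11, and the fitted value turned to 4.25 without that library and to 6.90 with wildtype library 30 alone, where it is set by a wildtype count of 0 and is no bound. Of 22 apical matrix and moulting genes, 17 were tested and 3 (17.6%) were lower, mlt-11, mlt-8 and nas-37. The protease inhibitor gene mlt-11 had wildtype counts of 1927, 37 and 11 and mutant counts of 2, 19, 24 and 6 and a log2 fold change of -5.73 (SE 1.52, edgeR adjusted p = 0.0144), and without wildtype library 11 it was -1.40 (edgeR adjusted p = 0.300). In the fit of all libraries mlt-11 passed the count filter through wildtype libraries alone. For mlt-8 and the astacin protease gene nas-37 the log2 fold changes were -2.91 (SE 0.94, edgeR adjusted p = 0.0329) and -3.52 (SE 1.01, edgeR adjusted p = 0.0202), and without wildtype library 11 they were -0.85 and -2.62, neither called. The fold change of nas-37 was 0.13 with wildtype library 30 as the only wildtype library.

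Of 12 regulators of hypodermal fate or moulting, all tested, 1 (8.33%) was lower and 0 higher, with a median log2 fold change of -0.03. It was elt-3, a GATA factor of the hypodermis, with wildtype counts of 525, 69 and 24 and mutant counts of 9, 36, 17 and 18 and a log2 fold change of -3.41 (SE 0.94, edgeR adjusted p = 0.0169). It was not called without wildtype library 11 (-1.61, edgeR adjusted p = 0.146). The hypodermal fate gene lin-26 and the GATA factor gene egl-18 were not called, with log2 fold changes of 0.71 (SE 0.29, edgeR adjusted p = 0.0838) and 1.14 (SE 0.50, edgeR adjusted p = 0.102). Basement membrane genes, which include collagens of another family, had 9 of 15 (60.0%) lower and 0 higher, with a median of -4.11. The smallest p-values were those of the fibulin gene fbl-1, the papilin gene mig-6 and the type XVIII collagen gene cle-1, at -4.85 (SE 0.79, edgeR adjusted p = 0.00135), -4.90 (SE 0.81, edgeR adjusted p = 0.00149) and -4.61 (SE 0.80, edgeR adjusted p = 0.00183). Of these, fbl-1 passed the count filter through wildtype libraries alone. The type IV collagen genes emb-9 and let-2 fell with -5.34 (SE 1.32, edgeR adjusted p = 0.0108) and -5.48 (SE 1.59, edgeR adjusted p = 0.0223).

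**Figure D5:**
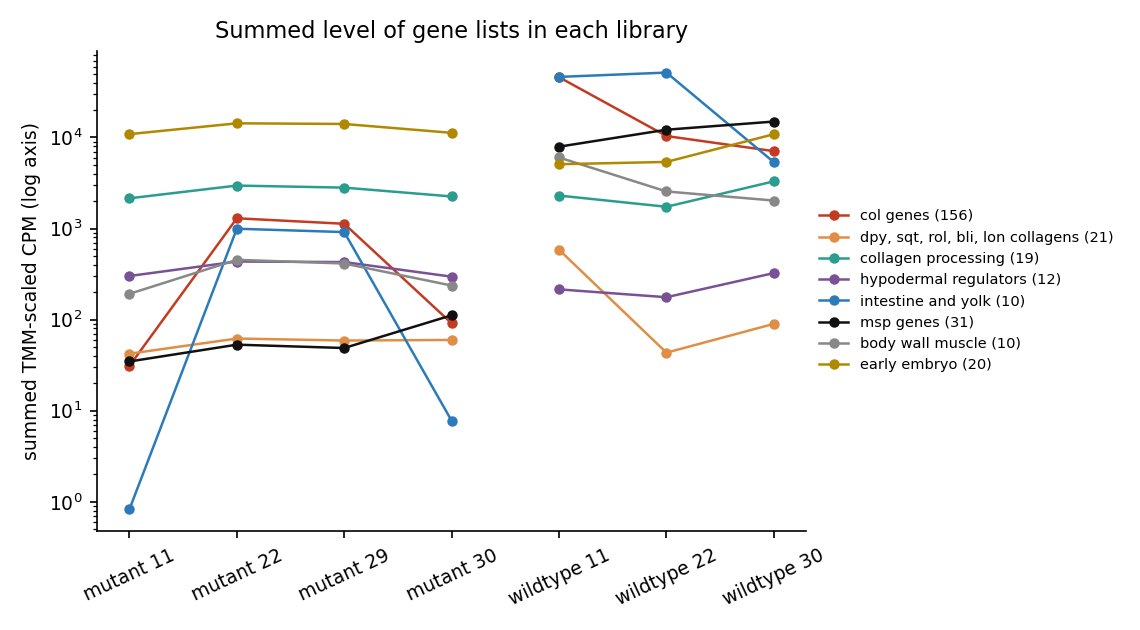
Summed TMM-scaled CPM of the genes of 8 lists is drawn for each of the 7 libraries on a log axis. Among the mutant libraries, 22 and 29 are the highest for the col, intestine and yolk, body wall muscle, collagen processing, hypodermal regulator and early embryo genes, by the widest margin for the intestine and yolk genes (0.828 to 996 CPM) and the col genes (31.05 to 1297 CPM). Most of the body wall muscle sum in the mutant is act-4, which hides a wider range of the other muscle genes.

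Marker genes of intestine and yolk, sperm and body wall muscle were lower in the mutant together with the col genes, and most neuron markers were not called. All 10 intestine and yolk genes were called lower, and 5 of them passed the count filter through wildtype libraries alone. The median log2 fold change was -6.16. Wildtype summed levels of the 10 genes were 46248, 51574 and 5353 CPM where the mutant had 0.828, 996, 915 and 7.76 CPM. In mutant libraries 22 and 29 they stood at 2.15% and 1.98% of wildtype library 11, where the summed col level stood at 2.83% and 2.46%. In the same mutant libraries the major sperm protein genes stood at 0.670% and 0.616% and the body wall muscle genes at 7.53% and 6.86%. In wildtype library 22 the intestine and yolk genes stood at 112% of wildtype library 11, but the col genes at 22.6%. All 31 major sperm protein genes were lower, with 34.7 to 112 CPM in the mutant and 7925 to 14955 CPM in wildtype. Of these, 3 passed the count filter through wildtype libraries alone. All 10 body wall muscle genes were lower, with 192 to 454 CPM against 2030 to 6029 CPM. The filter was passed through wildtype libraries alone by 2 of them. In mutant libraries 11, 22, 29 and 30, act-4 made up 190, 330, 288 and 232 of the summed 192, 454, 413 and 237 CPM. Apart from act-4, the most abundant muscle gene in the mutant was unc-54, at 0.463, 48.6, 44.4 and 1.11 CPM. No intestine marker was at 0 in any wildtype library, and vit-1 was at 0 in mutant library 11 and elt-2 in mutant library 30. Of the 20 early embryo genes, 0 were lower and 4 higher, where 29.4% and 9.01% of all tested genes were. Their median log2 fold change was 0.92. Of 10 neuron genes, 9 were tested and 1 was lower, with 214 to 369 CPM in the mutant and 117 to 345 CPM in wildtype. That neuron gene, rab-3, passed the count filter through wildtype libraries alone. The part of RNA from such tissues in the col levels was not tested.

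The authors' deposited table of their DESeq2 comparison holds only genes called there, 3791 in all, of which 81.1% are lower in the mutant. Its shares and medians thus cannot be set against those over all tested genes. It lists 63 col genes, 62 lower and 1, col-63, higher, with a median log2 fold change of -5.11 beside -3.41 for all genes in the authors' deposited table. Of the 62 col genes called lower by edgeR, 55 are in the authors' deposited table, which is 88.7% of the 62 and 87.3% of the 63. In the authors' deposited table col-62 had the largest fall of the family, at -7.28, and col-63 stood at 1.67 with an adjusted p of 0.0124.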

How the data were processed

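The authors deposited raw counts of reads per gene, made with featureCounts 1.6.4 per the file headers, on exons of a WBcel235 annotation. The submitters' processing notes also name BWA and DESeq2. BWA does not split reads over introns, so reads on exon junctions can go uncounted, and no option for strand or multiply mapped reads is given. The authors also deposited their own comparison with log2 fold changes, p-values, a test score and a mean signal over libraries. A further wildtype alignment named in the file headers was not analysed here.

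Symbols came from a table of gene names and the Ensembl release 115 annotation, for 43693 of 46748 identifiers. Genes were tested with the quasi-likelihood F-test of edgeR 4.0.16 (R 4.3.3, robust, TMM, genotype only) across all genes. The filter needed 0.276 CPM in at least 3 libraries and 15 counts in all, which left 13035 genes. P-values were adjusted by Benjamini-Hochberg over these, with a threshold of 0.05. Each SE beside an edgeR value is the absolute log2 fold change divided by the square root of F. It restates the test and gives no separate measure of precision. CPM per kb divides by the exon length that the authors deposited. The fits were also run on simulated counts with the same biological coefficient of variation, 0.576, for every gene and 200 genes changed in both directions. Abundant col genes vary more than that between libraries and vary together, so the simulation does not check their calls. The median log2 fold change over all genes was -0.21 by TMM, -0.42 by upper quartile scaling and 0.01 by unscaled library size, with 76.5%, 84.5% and 67.5% of calls lower.

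The members, the 11 lists and the tests were chosen with earlier results of these data known. Named col genes are the 10 highest per kb in wildtype, the 5 highest in the mutant, the 5 smallest p-values, any called higher, the 5 fold changes nearest 0 and 7 with known roles, and from each other list that holds no markers the 3 smallest p-values. The names of col genes outside this rule were chosen after their values were seen.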

Additional observations from a re-analysis of the deposited data

Results flagged for a closer look

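Among 45 named or summed levels checked over the 4 mutant libraries, 2 had a library far from the other 3, where chance alone gives about 1 in 20. For col-39, mutant library 11 lay below the others, with 0.0731 CPM against 0.892, 0.903 and 0.858 CPM, and the gap on this scale took 0.945 of the range. The counts were 3 against 33, 50 and 45. For elt-3, mutant library 22 lay above the others, with 0.973 CPM against 0.219, 0.307 and 0.343 CPM, and the gap on this scale took 0.836 of the range. The counts were 36 against 9, 17 and 18. The causes were not tested.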

How the results depend on the processing

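The col genes called lower, 62 of 100, were 67 of 100 with upper quartile scaling (beside 31.3% of all genes) and 55 of 100 with library size alone (beside 27.4%). They were 72 of 134 with DESeq2 (beside 28.2%) and 42 of 154 without a filter beyond 1 count (beside 20.6%). Against a 2-fold change they were 42 of 100 (beside 24.0%). Among tested genes without exon overlap, a subset chosen after seeing the data, 57 of 84 were lower, beside 29.4% of all tested genes with or without overlap. They were 26 of 42 with at least 5 CPM in 3 libraries (beside 20.3%), 22 of 110 with wildtype library 30 alone, and 28 to 59 with 1 library left out. No col gene was higher, but 1 was with library size alone and DESeq2, and 0 to 1 with 1 library left out. The col median of -4.01 was -5.62 with the 5 CPM filter and otherwise ran from -5.24 to -2.79.

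All genes lower, 3829, were 1564 with the 5 CPM filter and 1906 with wildtype library 30 alone. Genes higher, 1175, were 748 with upper quartile, 1835 with DESeq2, 505 with the 5 CPM filter, 172 against a 2-fold change, 339 without mutant libraries 22 and 29, and 589 to 2505 with 1 library left out. Named cuticle collagens lower, 5, were 1 with the 5 CPM filter, 3 against a 2-fold change, 2 without mutant libraries 22 and 29, 0 with wildtype library 30 alone and 1 to 8 with 1 library left out. Collagen processing genes lower, 4, were 2 with each of those 3 settings other than the fold, and 2 to 7 with 1 library left out. Cuticlins lower, 1, were 2 with upper quartile, 3 with DESeq2, 3 without a filter, 0 with the 5 CPM filter, 2 without mutant libraries 22 and 29 and 1 to 4 with 1 library left out. Hypodermal regulators lower, 1, were 0 with the 5 CPM filter and with wildtype library 30 alone, and 0 to 1 with 1 library left out. Of 676 values of 44 named genes, 498 kept direction and call, 134 lost the call, 19 gained one and 25 changed sign. Of these 25, 23 were of genes not called under either setting, col-38, col-123, col-64, col-110, col-46 and cut-3, and 2 were of called genes, dpy-14 to 0.021 without wildtype library 11 (-5.54 to 0.021 with 1 library left out) and nas-37 to 0.13 with wildtype library 30 alone. The causes were not tested.

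The numbers in the library names are not shown to pair the samples. Deviations of same-numbered libraries correlated at -0.20, 0.07 and 0.46 for numbers 11, 22 and 30, and libraries 11 and 22 correlated best with the other number. With the number as a replicate block, 19 of 100 tested col genes were lower, beside 23.1% of all genes, a share of col genes below that of all genes. It also gave as lower 2 named cuticle collagens, 2 collagen processing genes, 2 cuticlins and 0 hypodermal regulators. A subset by protein identity between col genes was not run, since no protein table was used here. Depth limits the 56 untested col genes, most of them at few counts.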
